A study of Mus musculus with 40 samples.

Results

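The nuclear genes of the mitochondrial respiratory chain and of ATP synthase were followed across all RNA-seq groups of a study of mouse follicular (FO) B cells. Members were all rows of the expression files whose gene name, without its suffix, began with Nduf followed by a, b, c, s or v, with Uqcr, with Cox followed by 4 to 8, or with Atp5, or was Sdha, Sdhb, Sdhc or Sdhd. This name rule took 92 of the 24732 genes and used no measured value. Of the 92 genes, 83 encode subunits, and 9 encode assembly factors or related proteins (Ndufaf1 to Ndufaf7, Atp5s and Atp5sl). Ndufa4 and its isoform gene Ndufa4l2 were counted with complex IV, where the NDUFA4 protein is now placed. The 13 subunits that mitochondrial DNA encodes were not analysed here.

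Oxidative phosphorylation passes electrons from NADH (complex I) and succinate (complex II) through complex III and cytochrome c to oxygen at complex IV, and the proton gradient built on the way drives ATP synthase, complex V. All complexes except complex II mix nuclear-encoded with mitochondrially encoded subunits, so the nuclear genes have to be supplied together with those of the organelle. Resting FO B cells are small and keep a low metabolic rate, and lymphocyte activation is known to enlarge the mitochondrial compartment as cells grow towards division.

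All cells came from C57BL/6 mice with MD4, a B cell receptor transgene against hen egg lysozyme (HEL), and were sorted by FACS. Ikzf1, which encodes the zinc finger factor Ikaros, was deleted with Cd23-cre, a Cre whose promoter is switched on at a late stage of B cell maturation. Naive cells without Ikaros were Cd23-cre Ikzf1(fl/-) (2 libraries), and their controls were Cd23-cre Ikzf1(fl/+) (2 libraries). These 4 libraries have numbers that begin with 36. Another 3 naive control libraries have numbers beginning with 57 (2 Ikzf1(fl/+) without Cre and 1 Cd23-cre Ikzf1(fl/+)), as do all HEL and anergic libraries. HEL had been injected intravenously 1 day before sorting into Ikzf1(fl/fl) mice without Cre (5 control libraries) and Cd23-cre Ikzf1(fl/fl) mice (5 loss libraries). The anergic cells (3 libraries, 1 each of Ikzf1(fl/fl), Ikzf1(fl/+) and Cd23-Cre Ikzf1(fl/+)) came from mice with a second transgene, ML5, which secretes soluble HEL, so their receptor met antigen throughout life. CpG, a DNA ligand of the receptor TLR9, was given for 1 day in culture to Cd23-cre Ikzf1(fl/-) cells (4 loss libraries) and Cd23-cre Ikzf1(fl/+) cells (4 control libraries), with numbers that begin with 49. The HEL controls carry no Cre, the CpG and number-36 naive controls keep 1 intact Ikzf1 allele, and whether replicates are separate animals is not given. The p-values therefore rest on a spread between libraries that could be technical where libraries share genotype and sex. The anergic and number-57 naive groups mix genotypes, and the number-36 and HEL groups mix sexes, so each came from more than 1 mouse.

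The promoters of a few members show how differently genes of one complex are built at their start. RefSeq windows of 300 bases, from 250 before to 50 after the listed start (GRCm38.p6), were found for 76 of the 92 members, and all 92 matched a RefSeq gene, 89 by symbol and 3 by synonym. The windows shown are those of Atp5g2, chr15:102670998-102671297 (minus strand), and Atp5g3, chr2:73911277-73911576 (minus strand), which encode the same mature c subunit of ATP synthase and are compared below by their shares. Cox7a2, chr9:79759804-79760103 (minus strand), and Cox7a2l, chr17:83514284-83514583 (minus strand), are paralogs that moved in opposite directions in CpG against naive cells. Both were higher in HEL controls than in naive controls. Uqcrc1, chr9:108936398-108936697 (plus strand), a core protein of complex III, and Atp5b, chr10:128083057-128083356 (plus strand), the catalytic subunit of ATP synthase, are the core subunits chosen for their complexes. Of the other core subunits chosen, Ndufv1 and Sdha had windows with none of the 4 motif cores below and are not shown. Cox4i1 had no window. Capitals mark matches, on either strand, to 4 motif cores: GCGCATG (NRF1), CCGGAAG (ETS factors such as GABPA), AAGATGG (YY1) and TGGGAA (Ikaros).
Atp5g2: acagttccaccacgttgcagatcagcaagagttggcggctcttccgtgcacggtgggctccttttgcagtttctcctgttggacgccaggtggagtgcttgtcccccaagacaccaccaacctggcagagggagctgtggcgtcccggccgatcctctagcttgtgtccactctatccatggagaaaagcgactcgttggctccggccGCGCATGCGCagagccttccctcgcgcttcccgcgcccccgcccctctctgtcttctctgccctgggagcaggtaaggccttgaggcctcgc
Atp5g3: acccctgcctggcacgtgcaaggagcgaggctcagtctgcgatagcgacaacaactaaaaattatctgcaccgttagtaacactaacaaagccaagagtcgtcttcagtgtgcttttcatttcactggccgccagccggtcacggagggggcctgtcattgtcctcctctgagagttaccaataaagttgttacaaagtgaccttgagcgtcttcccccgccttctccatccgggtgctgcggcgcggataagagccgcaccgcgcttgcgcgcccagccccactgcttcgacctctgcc
Cox7a2: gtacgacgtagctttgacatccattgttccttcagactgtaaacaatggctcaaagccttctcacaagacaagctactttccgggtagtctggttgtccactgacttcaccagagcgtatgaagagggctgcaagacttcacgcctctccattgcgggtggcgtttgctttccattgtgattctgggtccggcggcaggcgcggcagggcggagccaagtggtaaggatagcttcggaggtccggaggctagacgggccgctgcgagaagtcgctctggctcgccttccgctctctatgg
Cox7a2l: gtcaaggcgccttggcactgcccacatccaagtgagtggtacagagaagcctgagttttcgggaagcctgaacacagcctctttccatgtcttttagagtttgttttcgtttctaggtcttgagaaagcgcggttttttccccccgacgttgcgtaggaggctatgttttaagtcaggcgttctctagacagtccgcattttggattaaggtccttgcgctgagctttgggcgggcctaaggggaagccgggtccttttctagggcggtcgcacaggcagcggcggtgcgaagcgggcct
Uqcrc1: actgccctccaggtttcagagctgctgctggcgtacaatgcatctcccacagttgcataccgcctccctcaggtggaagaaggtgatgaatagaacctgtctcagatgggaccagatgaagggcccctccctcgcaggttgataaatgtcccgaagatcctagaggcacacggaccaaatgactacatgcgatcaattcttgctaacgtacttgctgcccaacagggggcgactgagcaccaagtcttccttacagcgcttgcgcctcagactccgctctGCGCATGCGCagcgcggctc
Atp5b: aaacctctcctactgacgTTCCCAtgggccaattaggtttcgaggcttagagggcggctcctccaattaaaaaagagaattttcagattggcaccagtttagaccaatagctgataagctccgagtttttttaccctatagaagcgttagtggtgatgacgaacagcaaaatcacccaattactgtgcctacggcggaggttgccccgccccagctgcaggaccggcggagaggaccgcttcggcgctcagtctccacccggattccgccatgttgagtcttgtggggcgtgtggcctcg
The windows of Atp5g2 and Uqcrc1 each hold a run that matches the NRF1 core on both strands, the 2 matches overlapping each other. Atp5b holds 1 Ikaros core near its far end, while Atp5g3, Cox7a2 and Cox7a2l hold none of the 4 letter strings, which says nothing about binding. Over the first listed start of each gene, the NRF1 core was in 15 of 76 members' windows (19.7%) and in 4.04% of all 27025 windows. The ETS core was in 21.1% of members' and 9.12% of all windows, and the YY1 core in 14.5% and 6.48%. The Ikaros core, a shorter string that shares the letters GGAA with the ETS core, was in 19.7% of members' and 25.5% of all windows. These matches are descriptions of letters in a window and were not tested.

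Depth ran from 12126702 to 25424364 reads per library. Ikzf1 matched the labels, with 57.3 to 65.3 TPM (reads per gene length, scaled to the same sum in every library) in naive loss against 120 to 135.5 in its controls, 60.3 to 79.3 against 195 to 261 under HEL, and 31.7 to 39.5 against 135 to 172 under CpG. The summed level of 5 B cell genes was 10720 to 14850 TPM in all groups except the CpG groups, where it was 1857 to 3348 TPM, and that of 3 follicular B cell genes was 66.9 to 177 TPM in CpG libraries and 799.7 TPM or more elsewhere. NK cell genes (4 genes, 14.01 to 29.8 TPM summed) and neutrophil genes (3 genes, 15.3 to 62.9 TPM) were present in all 4 number-36 naive libraries. In the number-57 naive controls NK genes were all at 0 and neutrophil genes reached 0.31 TPM, while in CpG neutrophil genes ran from 0 to 109 TPM. T cell genes summed to at most 11.8 TPM and erythroid genes to at most 0.371 TPM in any library. By Y-linked transcripts each number-36 group and both HEL groups hold male and female mice, and the other groups are male.

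Oxidative phosphorylation transcripts were abundant in resting B cells. In the number-57 naive controls the 77 subunit genes that reach a mean of 1 TPM in some group had a median of 215 TPM, against 21.4 TPM for all genes at 1 TPM or more, and 62 subunits were above 100 TPM. Per-length levels were highest for Atp5e, the epsilon subunit of ATP synthase (1922 ± 211 TPM, SD, n = 3), Cox6a1 (1372 ± 53.4 TPM) and Cox4i1 (1345 ± 49.2 TPM), both subunits of complex IV. The median subunit stood at 368 TPM in complex V, 308 TPM in complex III, 259 TPM in complex IV, 176 TPM in complex I and 160 TPM in complex II. Of the subunits that carry out the chemistry, Atp5b was among the 5 most abundant, at 791 ± 24.6 TPM, while Ndufv1, which binds NADH, was at 123 ± 6.54 TPM and Sdha, the flavoprotein of succinate dehydrogenase, at 180 ± 9.03 TPM. Among isoforms, the forms known from most tissues made up nearly all of the signal. Cox6a2 and Cox7a1, known from heart and muscle, were at 0.0567 and 5.34 TPM, Cox6b2, known from testis, at 3.03 TPM, and the means of Cox4i2, Cox7b2, Cox8b, Cox8c, Ndufa4l2 and Ndufs5 stayed under 1 TPM in every group. Ndufs5 was listed at 0 in nearly all libraries, and Ndufab1 (6.00 TPM), Cox7c (23.3 TPM), Uqcrb (41.0 TPM) and Atp5l (81.4 TPM) were low for their complexes. Reads of genes with near-identical copies can be split or lost in counting, so the levels of these 5 genes are uncertain.

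Summed over the subunits, the nuclear-encoded chain took 2.41% ± 0.0439 of all TPM in the number-57 naive controls (SD, n = 3) and 4.15% ± 0.0835 in the CpG controls (n = 4). From the highest group down, the mean shares were 4.29% (CpG loss), 4.15% (CpG control), 2.74% (naive loss), 2.61% (number-36 naive control), 2.51% (HEL control), 2.49% (HEL loss), 2.41% (number-57 naive control) and 2.37% (anergic). Each neighbouring pair in this order overlapped over libraries except CpG control (lowest 4.06%) and naive loss (highest 2.88%). The 3 anergic libraries were far apart, at 2.33%, 2.15% and 2.62%. After median-ratio scaling over all libraries the CpG groups and naive loss came closer, at 3.72%, 3.64% and 3.49%. In bulk RNA, fewer cells of a type and less RNA per cell cannot be told apart.

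**Figure D1:**
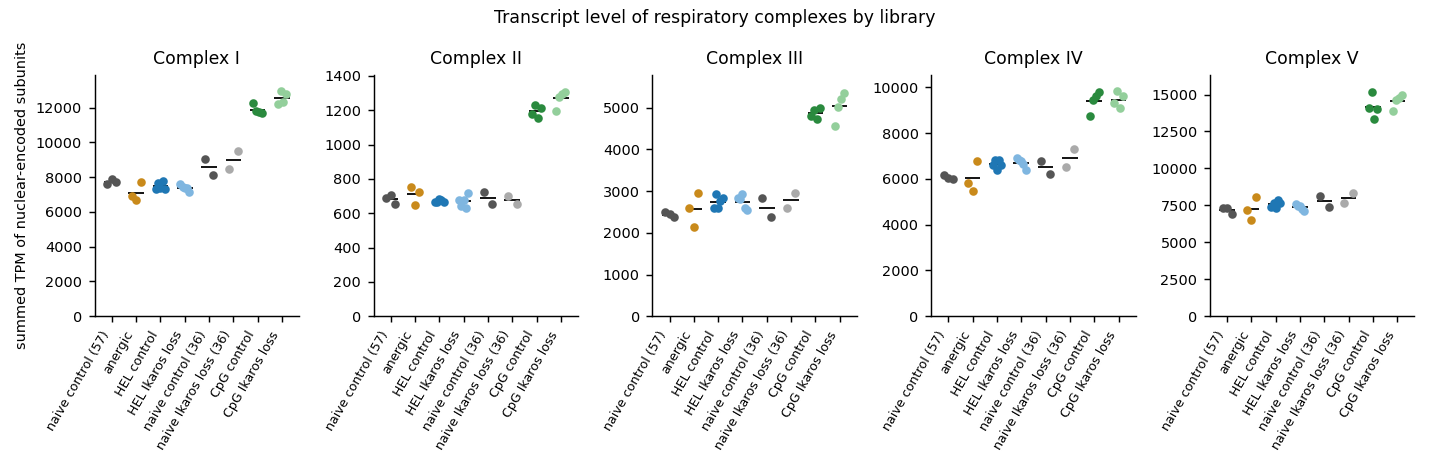
Summed TPM of the nuclear-encoded subunits of complexes I to V in each library; points are libraries, lines are group means, and 36 and 57 are the beginnings of the library numbers of the naive groups. In all 5 complexes the 8 CpG libraries lie above the other 20 libraries; after median-ratio scaling the CpG means over all subunits are 3.72% and 3.64% against 3.49% in naive loss.

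The scale matters for these genes, because TPM shifts when a few abundant transcripts change. On the deposited TPM the median log2 difference over all genes tested was -0.12 for Ikaros loss in naive cells, -0.08 under HEL and 0.02 under CpG, -0.16 for HEL against naive controls, 0.23 for anergic against HEL, 0.07 for anergic against naive, and 0.43 and 0.56 for CpG against naive controls and in loss cells. Every comparison was therefore repeated after median-ratio scaling of the TPM, which puts the median gene near 0, and with voom on reads recovered from the TPM. A gene is called robust below when its adjusted p was under 0.05 in the same direction in all 3 scalings. The limma log2 differences given with their standard errors are on the log2(TPM + 1) scale of the deposited values unless stated. The members are also short. Their median counted length was 733 bases, against 2567 over all genes, and 57 of 90 were under 1000 bases. Tested genes under 1000 bases, called short genes below, are therefore given beside some comparisons. For Ikaros loss 31.7% of short genes were called under HEL and 15.1% under CpG, beside 36.9% and 14.9% of all genes.

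**Figure D2:**
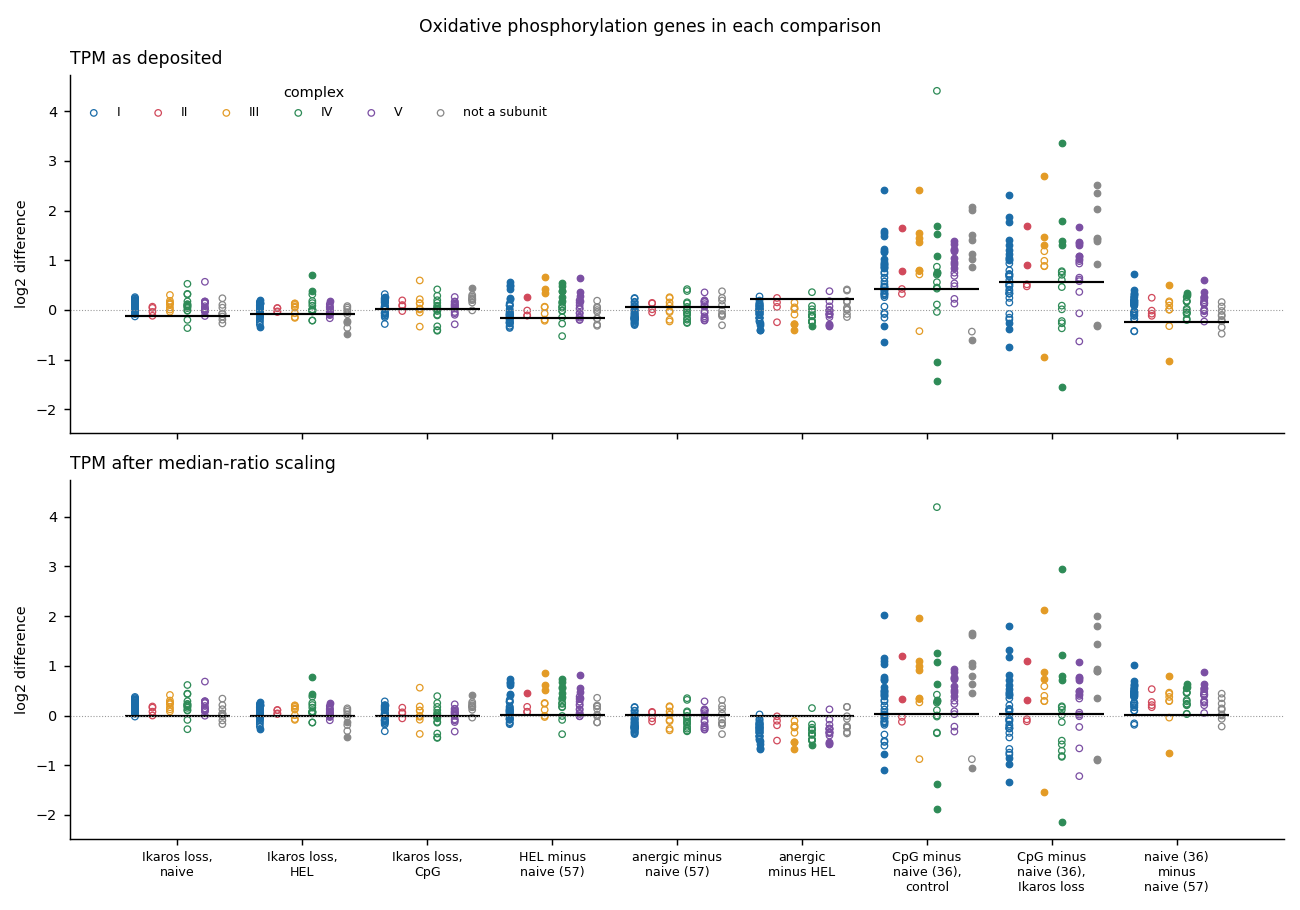
Log2 differences of each tested member in 9 comparisons, on log2(TPM + 1) as deposited (top) and after median-ratio scaling (bottom); columns of circles are complexes I to V and non-subunits, filled circles are genes called the same way in 3 scalings, and black lines are the median of all genes tested. Scaling turns the median of the members from -0.02 to 0.17 for HEL against naive and from 0.78 to 0.33 for CpG against naive controls, and it makes no member of Ikaros loss in naive cells or of anergic against naive pass.

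CpG was the condition in which the chain differed most from naive cells. In control cells 66 of 86 tested members were called higher and 5 lower than in number-36 naive controls, where 67.6% of all genes were called (48.3% higher, 19.3% lower). Of short genes 43.3% were called higher and 18.2% lower, beside 76.7% and 5.81% of members. The median member was 0.78 higher on the log2 scale, against 0.43 for all genes, and 0.33 higher after median-ratio scaling, where 42 were called higher and 12 lower. Robust calls were 41 higher and 5 lower, against 32.1% and 19.3% of all genes. Treatment, culture and library numbers change together here and cannot be told apart. The number-36 and number-57 naive controls themselves differed in 30.5% of all genes (2.59% higher, 27.9% lower in number 36), with 11 members higher and 3 lower of 85 on deposited TPM and 43 higher and 1 lower after median-ratio scaling. The scaled median difference of the members between the naive sets was 0.38, beside 0.33 for CpG against naive controls. Robust calls between them were 11 higher and 1 lower, against 2.56% and 11.6% of all genes. On deposited TPM 10.5% of short genes were higher and 13.1% lower in number 36, beside 12.9% and 3.53% of members. NK and neutrophil genes were in the number-36 naive libraries and B cell genes were lower in CpG, with the summed levels given above, and their part was not tested. Complex IV took a smaller share of subunit TPM in CpG controls (22.6% ± 1.15) than in naive controls (24.9% ± 0.37), and complex V a larger one (34.05% ± 1.18 against 29.7% ± 0.24), both independent of scaling between libraries and given as a description.

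In complex I, 26 of 35 tested subunits were called higher and 2 lower (13 and 2 robust). Of all genes 32.1% were robustly higher, a share near that of complex I, and 19.3% robustly lower. The median subunit was 0.57 higher on deposited TPM and 0.12 higher after median-ratio scaling, beside 0.43 and 0.03 for all genes. After that scaling 13 subunits were called higher and 6 lower. Ndufv1 read 240, 241, 247 and 245 TPM in the CpG controls and 149 and 124 TPM in naive controls, without overlap. It was 1.78-fold higher (log2 difference 0.84 ± 0.10, adjusted p = 0.000291, limma). The largest rise was in Ndufab1, the mitochondrial acyl carrier protein, from 3.86 and 4.43 to between 18.4 and 34.3 TPM (2.41 ± 0.24, adjusted p = 9.6e-05), a gene of uncertain level. Ndufa6, an accessory subunit on the matrix arm, went the other way and fell from 658 and 586 TPM to 503, 359, 400 and 343 TPM (-0.65 ± 0.17, adjusted p = 0.0099). Between the 2 sets of naive controls Ndufa6 also differed, with 376 ± 15.0 TPM in the number-57 libraries (0.72 ± 0.09 higher in number 36, adjusted p = 0.0027), so its CpG level of 401 ± 71.8 TPM was low against one set only.

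Complex II feeds electrons from the citric acid cycle into the chain, and all 4 of its subunits were called higher in both genotypes (2 robust). Sdhd, a membrane anchor subunit, rose from 113 and 95.4 TPM to 348, 328, 318 and 322 TPM. That was 3.16-fold (1.66 ± 0.11, adjusted p = 1.8e-05, limma), the largest change in the complex. Sdha stood at 166 and 166 TPM in naive controls and 195, 267, 200 and 236 TPM in CpG controls, called higher on deposited TPM (0.42 ± 0.14, adjusted p = 0.0338) and at -0.03 after median-ratio scaling.

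In complex III, 7 of 8 subunits were called higher (5 robust). Uqcrc1 was at 306 and 305 TPM in naive controls and 539, 467, 514 and 491 TPM after CpG (0.71 ± 0.10, adjusted p = 0.00047, and 0.26 with adjusted p = 0.05 after median-ratio scaling). The Rieske protein gene Uqcrfs1 rose robustly from 174 ± 17.1 to 302 ± 14.5 TPM. Uqcrb rose most, from 18.9 and 20.1 TPM to between 77.7 and 152 TPM, but it was 41.0 ± 2.29 TPM in the number-57 naive controls, a difference between naive sets of -1.04 ± 0.10, and its level is uncertain. Uqcrh, the hinge protein, did not follow its complex. In CpG controls it read 431, 619, 439 and 603 TPM against 792 and 607 TPM in naive controls (-0.43, not called), and in CpG loss cells 337, 298, 497 and 558 TPM against 757 and 819 TPM, a fall of all 4 libraries below both naive ones (-0.95 ± 0.24, adjusted p = 0.00787).

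In complex IV, 9 of 15 tested subunits were called higher and 2 lower (5 and 2 robust), shares near those of all genes given above. Cox4i1, among the most abundant members in resting cells, was at 1703, 1765, 1691 and 1800 TPM against 1726 and 1506 TPM. It did not pass on deposited TPM (0.11 ± 0.10, adjusted p = 0.365) and was called lower after median-ratio scaling (-0.34, adjusted p = 0.0291). Cox7a2, whose protein sits in the oxidase of most tissues, rose from 220 and 156 TPM to 390, 567.6, 605 and 624 TPM (1.53 ± 0.22, adjusted p = 0.000658). Cox7a2l encodes its relative SCAF1, which links complexes III and IV in supercomplexes and is present in a shortened form in C57BL/6 mice. It fell from 329 and 330 TPM to 117, 121, 117.5 and 134 TPM in CpG controls (-1.42 ± 0.10, adjusted p = 2.52e-05) and from 343 and 370 TPM to between 115 and 124 TPM in CpG loss cells (-1.56 ± 0.08, adjusted p = 1.36e-06). All 8 CpG libraries were below all 20 other libraries, the lowest of which held 246 TPM, and the fall held in all 3 scalings. Cox7a1, the muscle isoform, fell from 4.55 and 4.41 TPM to between 0.714 and 2.69 TPM in controls (-1.05 ± 0.30, adjusted p = 0.0161). Cox6a2, the other muscle isoform and a gene marked as overlapping another, was at 0.361 and 0.163 TPM in naive controls and 5.6, 13.7, 78.7 and 65.2 TPM in CpG controls, where the second pair of libraries was far above the first (4.41 ± 0.97, adjusted p = 0.00497, but 0.108 with voom). In CpG loss cells it was 16.0, 25.0, 16.3 and 20.1 TPM against 0.44 and 1.67 TPM (3.35 ± 0.27, adjusted p = 1.17e-05).

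In complex V, 13 of 15 subunits were called higher and none lower in either genotype on deposited TPM (9 robust in controls, 7 in loss cells), while after median-ratio scaling 2 were called lower in loss cells. Atp5b rose from 850 and 882 TPM to 2110, 2452, 1967 and 2155 TPM, 2.51-fold (1.32 ± 0.12, adjusted p = 5.6e-05), and Atp5a1, the partner subunit in the catalytic head, from 633 ± 4.21 to 1455 ± 92.8 TPM. Atp5e, already the most abundant, was at 1933 ± 231 TPM in naive and 2805 ± 311 TPM in CpG controls. Of the non-subunits, 7 of 9 were called higher and 1 lower, all robust. Ndufaf6, a complex I assembly factor, rose from 5.96 ± 0.13 to 28.3 ± 2.49 TPM (2.07 ± 0.13, adjusted p = 1.55e-05), and Atp5sl, a protein known from complex I assembly despite its name, fell from 59.2 ± 6.10 to 38.4 ± 3.65 TPM (-0.61 ± 0.13, adjusted p = 0.00371). In loss cells the largest rise was in Ndufaf4, from 4.11 ± 0.44 to 28.2 ± 2.999 TPM (2.51 ± 0.13, adjusted p = 1.31e-06).

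**Figure D3:**
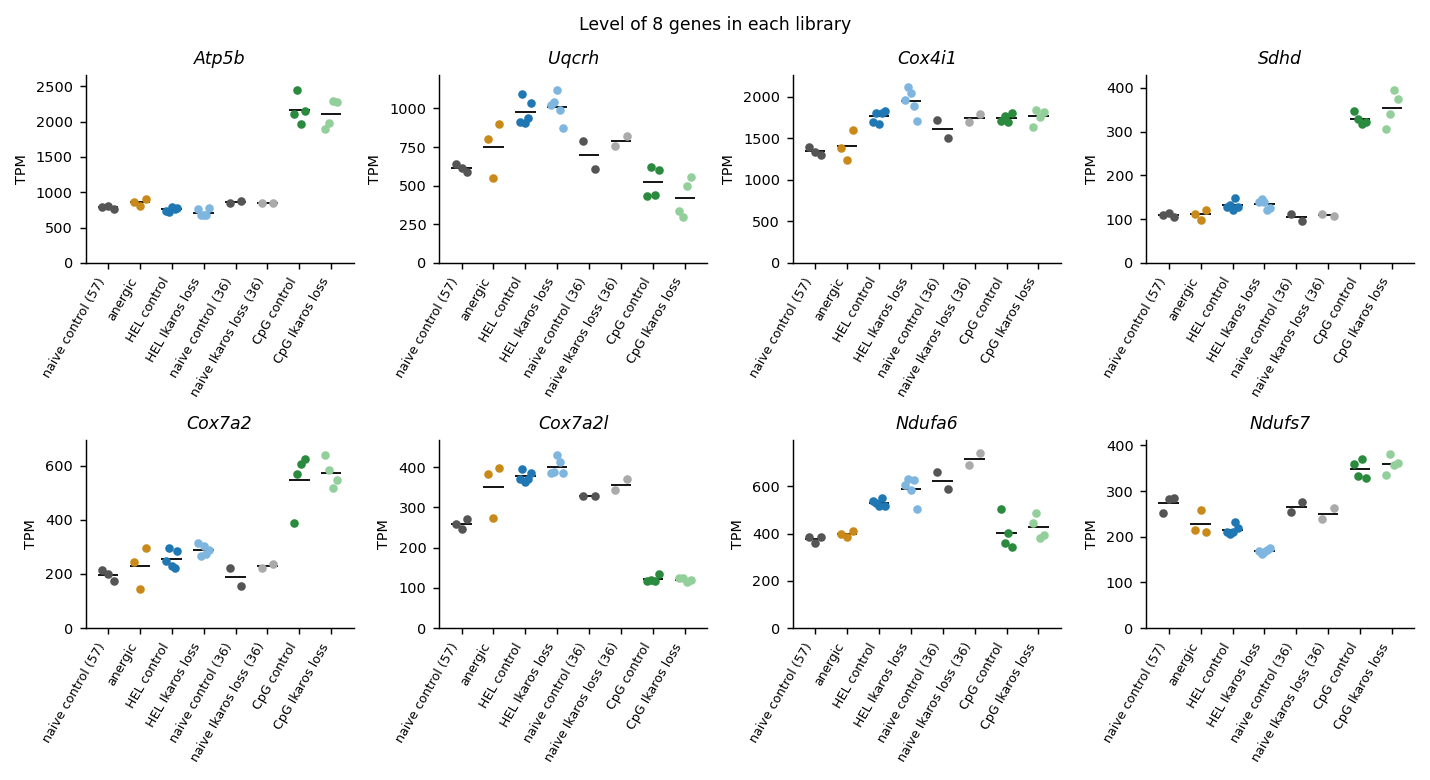
TPM of 8 members in each library, with group means as lines. The CpG libraries are the highest for Atp5b, Sdhd and Cox7a2 and the lowest for Cox7a2l, and Ndufs7 is lowest in HEL loss (163 to 175 TPM).

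CpG loss cells set against naive loss cells gave these counts from other libraries: 64 of 86 members higher and 7 lower on deposited TPM (background 76.1%, with 56.3% of all genes higher and 19.8% lower), 34 and 17 after median-ratio scaling, and 32 and 7 robust, against 36.8% and 19.8% of all genes. The share of robustly higher members was thus near that of all genes, and the median member was 0.74 higher on deposited TPM and 0.15 higher after scaling. The 7 lower robust genes were Ndufa6, Ndufa13, Ndufv3, Uqcrh, Cox7a2l, Ndufaf3 and Atp5sl. With 2 naive libraries on each side, the share of calls in these 2 comparisons rests on few samples.

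The isoform genes of the c ring of ATP synthase were compared by their shares. The c subunit is encoded by Atp5g1, Atp5g2 and Atp5g3, whose mature proteins are identical, so a share within the library is independent of any scaling. Atp5g2 made up 38.6% ± 2.60 of the 3 genes' TPM in number-57 naive controls (n = 3), 48.3% ± 2.50 in HEL controls (n = 5), 41.7% ± 1.68 in anergic cells (n = 3) and 29.2% ± 3.70 in CpG controls (n = 4). HEL controls (44.3 to 50.3%) did not overlap naive (35.99 to 41.2%) or anergic libraries (40.2 to 43.5%), each with a two-sided exact permutation p = 0.0179, the smallest its design can give. Over all 27 tests of 3 isoform shares in 9 comparisons, which were chosen after the values were seen, no adjusted p was under 0.161, so neither difference passes correction. CpG controls (24.8 to 33.8%) lay below number-36 naive controls (37.9 and 38.6%), a design in which an exact permutation test cannot go under p = 0.0667. Of Cox7a2 and Cox7a2l together, Cox7a2l took 54.7 to 67.9% in the 20 libraries outside CpG and 16.2 to 23.0% in the 8 CpG libraries. Ikaros loss moved neither share beyond the overlap of libraries under HEL or CpG. In naive cells the Atp5g2 share was 2.81 points higher in loss without overlap of the 2 libraries a side, where the exact permutation test cannot go under p = 0.333, and the Cox7a2l share overlapped.

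**Figure D4:**
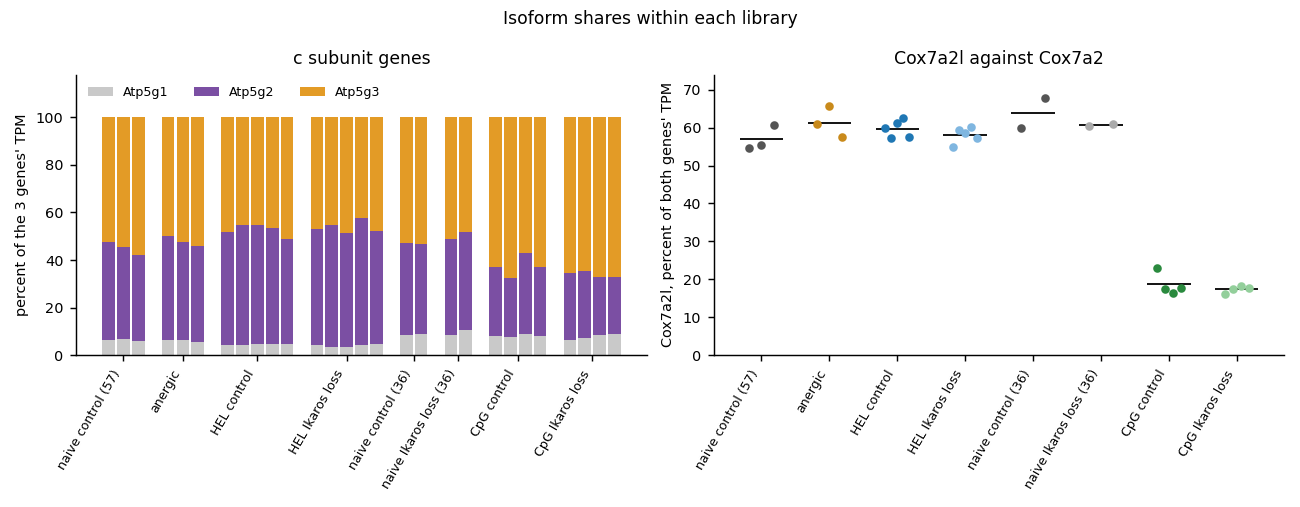
Left, the percentage of the summed TPM of Atp5g1, Atp5g2 and Atp5g3 that each gene took, with 1 bar per library; right, Cox7a2l as a percentage of Cox7a2 plus Cox7a2l, with points as libraries and lines as means. Atp5g2 was 48.3% in HEL controls and 29.2% in CpG controls, and Cox7a2l was at 54.7% or more in the libraries outside CpG and at 23.0% or less in the CpG libraries.

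The pathways around the chain were compared by lists of genes. In CpG against naive controls, 17 of 17 citric acid cycle genes were called higher (12 robust, median 1.06), with Dld, a subunit shared by several dehydrogenase complexes, at 77.6 against 18.03 TPM and Idh3a at 119 against 32.1 TPM. Of 76 mitochondrial ribosomal protein genes 70 were called higher and none lower on deposited TPM (55 robust, median 1.24), although median-ratio scaling called 2 lower. Cytochrome c and coenzyme Q genes went up in 12 of 15 cases and down in 1 (11 and 1 robust, median 1.10), led by Pdss1, which builds the coenzyme Q tail, and Cycs, cytochrome c itself, at 64.5 against 10.8 TPM (2.47 ± 0.11, adjusted p = 6.48e-06). Assembly factors outside the name rule were higher in 24 of 32 and lower in 1 (14 and 1 robust), among them Nubpl and Sco1. Of 78 cytosolic ribosomal proteins 21 were higher and 25 lower on deposited TPM (median -0.09). After median-ratio scaling 11 were higher and 42 lower (median -0.53), and 10 and 25 were robust. Their levels in naive controls ran from low, as for Rpl34 at 6.875 TPM, to high, as for Rps29 at 19980 TPM. Reads of near-identical copies can be split or lost here too, in each comparison that counts this list, which was not tested. Among 12 regulators 7 were higher and 1 lower (5 and 1 robust), with Myc at 206 against 46.5 TPM and Pprc1, a coactivator of mitochondrial genes, at 64.0 against 23.7 TPM. The median of the oxidative phosphorylation members, 0.78, thus lay between those of the mitochondrial and the cytosolic ribosomal genes.

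A day of HEL in the mouse went with uneven changes in the chain. Against number-57 naive controls, 20 of 85 tested members were called higher and 21 lower in HEL controls, where 48% of all genes were called (9.92% higher, 38.1% lower). Of short genes 21.1% were called higher and 20.3% lower, beside 23.5% and 24.7% of members. After median-ratio scaling 36 members were higher and none lower, so the 20 higher calls were robust and the 21 lower calls were not; 9.66% of all genes were robustly higher. With a term for sex, since 3 HEL controls are female and all naive controls male, 17 were higher and 10 lower, and without naive control replicate 2 the calls numbered 24. Follicular B cell genes summed to 1220 to 1473 TPM in HEL controls and 1783 to 2326 TPM in naive controls, without overlap. Plasma cell genes (3 genes) summed to 5.55 to 9.61 and 1.76 to 5.42 TPM, also without overlap. Of the 3, only Sdc1 was higher without overlap (4.70 to 7.38 against 0.33 to 0.404 TPM). Prdm1 overlapped, and Igj ranged lower with overlap (0.607 to 1.85 against 1.23 to 4.85 TPM). The part of these cell type genes was not tested. Every robust call in complexes I to V was therefore a rise.

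Uqcrh read 914, 1093, 907, 936 and 1032 TPM under HEL and 638, 615 and 590 TPM in naive controls, without overlap. It was 1.59-fold higher (0.66 ± 0.07, adjusted p = 8.27e-05, limma). After CpG, Uqcrh was called lower than naive on deposited TPM in loss cells only. Its values in CpG controls overlapped both sets of naive controls. Atp5g2 rose from 343, 311 and 293 TPM to 479, 491, 524, 515 and 443 TPM (0.64 ± 0.07, adjusted p = 0.000103), while Atp5g3, its twin in protein, was 436, 439 and 472 TPM in naive and 484, 443, 473, 486 and 510 TPM in HEL libraries (0.09 ± 0.06, adjusted p = 0.215). Ndufa6 and Cox4i1 rose too, Cox4i1 from 1345 ± 49.2 to 1763 ± 71.4 TPM (0.39 ± 0.06, adjusted p = 0.000414). Cox7a2l was 0.54 ± 0.06 higher (adjusted p = 5.81e-05), with all HEL libraries at 362 TPM or more and all naive ones at 272 TPM or less. Its paralog Cox7a2 was robustly higher too (0.377 ± 0.105, adjusted p = 0.0138, limma). Sdhd rose 1.202-fold, whereas Sdha, Uqcrc1, Ndufv1 and Atp5b did not pass on deposited TPM. Within complex I the largest lower call was Ndufb8, at 318 ± 30.4 against 408 ± 19.0 TPM (-0.36 ± 0.08, adjusted p = 0.00424), a call that median-ratio scaling did not keep (-0.17, adjusted p = 0.174).

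The ribosomal lists were counted in the same libraries, with no test between them. Of 78 cytosolic ribosomal protein genes 68 were called higher under HEL and 1 lower (68 and 0 robust, median 0.62), while of 76 mitochondrial ribosomal protein genes 15 were higher and 13 lower (15 and 0 robust, median 0.005), and 37 and none after median-ratio scaling. Regulators were lower in 9 of 12 (7 robust), among them Pprc1 (20.6 against 37.8 TPM, -0.85 ± 0.06, adjusted p = 9.14e-06) and Ppargc1b, a PGC coactivator. Assembly factors were higher in 3 and lower in 11 of 32 on deposited TPM, but higher in 12 and lower in 5 after median-ratio scaling (3 and 5 robust). Surf1, which takes part in complex IV assembly, was 0.82 ± 0.09 higher and Bcs1l, which inserts the Rieske protein into complex III, 0.61 ± 0.08 higher. In the citric acid cycle Idh2 fell from 53.3 to 33.0 TPM (-0.68 ± 0.08, adjusted p = 0.000164) while Idh3b rose (0.54 ± 0.06, adjusted p = 8.01e-05). Of the 17 cycle genes tested 5 were higher and 4 lower (5 and 1 robust).

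Anergic cells, which met HEL throughout life, were compared with naive cells next. No member of 85 passed in anergic against naive controls by limma, where 7.37% of all genes did (4.48% higher, 2.89% lower). An unadjusted p under 0.05 was found for 9 members, 3 higher and 6 lower, beside 2405 of all 10519 genes tested. Neither median-ratio scaling nor voom called any member, while 3.68% of all genes were robustly higher and 2.79% lower. The group was uneven. Without anergic replicate 2, the Ikzf1(fl/+) library with the lowest subunit share, 7 members passed (6 higher, 1 lower), and without replicate 3, the Cd23-Cre Ikzf1(fl/+) library with the highest share, 2 passed (0 higher, 2 lower). Uqcrh shows the spread, with 802, 547 and 901 TPM against 638, 615 and 590 TPM in naive controls. Cox7a2l was 384, 273 and 397 TPM, all above the naive range of 246 to 272 TPM, yet did not pass (0.42 ± 0.15, adjusted p = 0.134), and Atp5g2 was 416, 368 and 427 TPM, also above it (0.35 ± 0.10, adjusted p = 0.0762). Plasma cell genes summed to 11.7 to 16.3 TPM in anergic libraries, above the naive range. Sdc1 (8.62 to 14.8 TPM) and Prdm1 (0.777 to 1.105 TPM) were above their naive ranges. Igj overlapped, at 0.674 to 2.27 against 1.23 to 4.85 TPM. The part of these genes was not tested. Around the chain few genes moved: Myc was higher (1.03 ± 0.14, adjusted p = 0.00393), the nuclear receptor gene Esrra lower (-0.43 ± 0.11, adjusted p = 0.0472) and Idh2 lower (-0.58 ± 0.10, adjusted p = 0.014), and Sdhaf1, an assembly factor of complex II, higher (0.57 ± 0.12, adjusted p = 0.0258).

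Anergic cells were also set against cells 1 day after HEL, a comparison that shares the anergic libraries with the one above and the HEL controls with the one of HEL against naive. On deposited TPM 4 of 85 members were higher and 10 lower (background 42.2%, 36.8% higher and 5.39% lower), and after median-ratio scaling none was higher and 34 were lower. All 10 lower calls were robust, against 5.25% of all genes, and no higher call was, against 10.1%. On deposited TPM 11.7% of short genes were higher and 15.2% lower, beside 4.71% and 11.8% of members. Among the 10 lower members were Ndufa6, Ndufa10 and Ndufb11 of complex I, Uqcrfs1 and Uqcrh of complex III, Cox4i1 of complex IV, and Atp5c1, Atp5d and Atp5g2 of complex V. Ndufa6 was at 398, 385 and 412 TPM in anergic cells and 515 to 550 TPM under HEL (-0.41 ± 0.07, adjusted p = 0.00151), with a gap between the groups. Cox4i1 was at 1389, 1242 and 1604 TPM against 1671 to 1827 TPM (-0.33 ± 0.09, adjusted p = 0.0152). Sdha, at 217, 201 and 177 TPM against 159 to 183 TPM, was called higher on deposited TPM (0.24 ± 0.09, adjusted p = 0.0445) and at -0.02 after scaling. A term for sex left 2 higher and 3 lower calls; the calls numbered 7 without anergic replicate 1, 23 without anergic replicate 3 and 9 without HEL control replicate 4. Cytosolic ribosomal proteins were lower in 47 of 78 and higher in none (47 robust), and regulators higher in 10 of 12 (5 robust), with Pprc1 at 42.9 against 20.6 TPM.

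Loss of Ikaros left the chain of naive cells without a call. None of 85 members passed in naive loss against its controls by limma, or with median-ratio scaling or voom. An unadjusted p under 0.05 was found for 1 member, beside 896 of all 10053 genes tested. Of all genes 0.0199% passed in this fit. Each group holds 1 male and 1 female library, and with a term for sex 104 genes were higher and 136 lower, still with no member among them. Ndufv1 was 149 and 157 TPM against 149 and 124 TPM, and Atp5b 851 and 846 TPM against 850 and 882 TPM. The median member was at 0.06, against -0.12 for all genes and 0.07 for short genes.

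Under HEL, 6 of 85 members were higher and 10 lower in loss cells on deposited TPM, where 36.9% of all genes were called (12.9% higher, 24.1% lower), which puts 18.8% of members beside 36.9% of genes. Median-ratio scaling gave 13 higher and 3 lower, and voom 14 and 3. Robust calls were 6 higher and 3 lower, against 12.8% and 16% of all genes. Without HEL control replicate 4, or without HEL loss replicate 2, 10 members were called. Myeloid genes (4 genes summed, none at 0 in either group) moved with the genotype, at 28.1 to 40.1 TPM in loss and 9.55 to 15.3 TPM in control libraries, as did the 5 B cell genes, at 10720 to 11850 and 12810 to 13890 TPM. Their part in these differences was not tested.

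The clearest change was in Ndufs7, an iron-sulfur core subunit of complex I, which read 169, 163, 167, 171 and 175 TPM in loss and 209, 206, 209, 233 and 219 TPM in control libraries, without overlap. It fell by 0.35 on the log2 scale (SE 0.05, adjusted p = 0.000111). Ndufaf4, a complex I assembly factor, was between 2.54 and 3.17 TPM in loss and between 3.72 and 4.87 TPM in control libraries (-0.49 ± 0.09, adjusted p = 0.000738). Atp5sl, the remaining robust fall, was 57.7 ± 1.04 against 67.0 ± 2.26 TPM. Complex I did not fall as a whole, since its core subunit Ndufv2 (116 ± 7.82 against 100 ± 3.53 TPM, 0.21 ± 0.06, adjusted p = 0.01) rose, as did Ndufb11, a gene marked as overlapping another. In complex V Atp5c1, the rotating shaft of ATP synthase, rose from 228 ± 8.50 to 259 ± 20.1 TPM (0.18 ± 0.06, adjusted p = 0.0272). In complex IV the rises were in isoforms at low levels: Cox7a1 was 9.01, 5.02, 4.58, 7.30 and 5.75 TPM in loss against 4.28, 2.78, 4.22, 3.72 and 2.26 TPM (0.71 ± 0.17, adjusted p = 0.0061), and Cox6b2 3.66 ± 0.67 against 2.58 ± 0.38 TPM. Uqcrc1, Cox5a and Cox6a1 were called lower on deposited TPM (-0.14, -0.21 and -0.21) and not after median-ratio scaling, and Cox4i1, Ndufv1, Sdha and Atp5b did not pass.

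The regulators fell in 7 of 12 cases under HEL (5 robust), with Myc at -0.79 ± 0.15 (adjusted p = 0.00116) and Pprc1 at -0.66 ± 0.09 (adjusted p = 6.14e-05). Cycs fell as well (-0.44 ± 0.07, adjusted p = 0.000271), Suclg2, a succinyl-CoA ligase subunit, fell by 0.57 and Idh2 rose by 0.76 (SE 0.07, adjusted p = 4.76e-06). Mitochondrial ribosomal proteins were higher in 7 and lower in 17 of 76 (7 and 6 robust), and median-ratio scaling gave 10 and 9.

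Under CpG, Ikaros loss was accompanied by few and small rises. Of 86 members 5 were higher and none lower, where 14.9% of all genes were called (9.14% higher, 5.8% lower), and 2 higher calls were robust, against 7.91% of all genes robustly higher and 5.7% lower. Ndufb9, an accessory subunit in the membrane arm of complex I, read 584, 581, 578 and 586 TPM in loss and 488, 471, 484 and 507 TPM in control libraries (0.26 ± 0.05, adjusted p = 0.0139), a spread of a few TPM in the first group. Ndufaf2, a complex I assembly factor, read 143, 141, 128 and 146 TPM in loss and 100, 96.2, 114 and 99.3 TPM in control libraries (0.45 ± 0.07, adjusted p = 0.00499), without overlap. Sdhc was called higher on deposited TPM (0.19 ± 0.06, adjusted p = 0.0475) and not after scaling. Ndufv1, Sdha, Uqcrc1, Cox4i1 and Atp5b did not pass. A term for the first and second block of library numbers raised the calls to 10 higher and none lower; without CpG control replicate 1 there were 8, and 2 without any one of the 4 loss libraries or of CpG control replicates 3 and 4. Of the mitochondrial ribosomal genes 17 of 76 were higher and 1 lower (9 and 1 robust), Myc was 0.49 ± 0.10 higher (adjusted p = 0.0129) and Idh2 0.65 ± 0.13 higher (adjusted p = 0.013).

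Whether Ikaros loss acted differently under CpG and HEL was tested by the difference of the 2 effects. It was called above 0 for 15 of 86 members and called below 0 for none on deposited TPM, while voom called 8 higher and 1 lower. Of all genes 22.4% were called on deposited TPM (15.2% higher, 7.19% lower). Called or not, 54 members had a difference above 0 and 31 below, but the median over all genes was also above 0, at 0.08. The median member was at 0.06. After median-ratio scaling the median member was at 0.004, beside 0.03 for all genes. Robust calls were 8 higher and none lower, against 8.2% and 6.42% of all genes: Ndufb2, Ndufc1 and Ndufs7 of complex I, Cox5a of complex IV, and the non-subunits Ndufaf2, Ndufaf4, Atp5s and Atp5sl. Among the called members the effects differed most for Ndufaf4 (0.71 ± 0.13, adjusted p = 0.000912), at -0.49 under HEL and 0.22 under CpG. Cox5a differed by 0.50 ± 0.11 (adjusted p = 0.00402) and Ndufs7 by 0.39 ± 0.08 (adjusted p = 0.00133). The calls numbered 9 without CpG loss replicate 1, and 9 without CpG control replicate 4, and 16 were higher and 2 lower without CpG loss replicate 4. Cox6a2 had a larger difference in size that was not called (-0.82 ± 0.73, adjusted p = 0.453). The lists around the chain went different ways. Mitochondrial ribosomal proteins were higher in 24 of 76 and lower in none on deposited TPM (14 robust), although voom called 1 lower. Cytosolic ribosomal proteins were higher in 1 and lower in 10 of 78 (0 and 10 robust), Rps23 among them (-1.51 ± 0.42, adjusted p = 0.0166). Rps23 was low for a ribosomal gene, at 14.8 TPM in HEL loss and 6.84 TPM in HEL controls, where Rplp0 was at 4595 TPM. Its level is therefore uncertain. Cytochrome c and coenzyme Q genes were higher in 6 and lower in 2 of 15 (4 and 2 robust). Myc differed by 1.29 ± 0.21 (adjusted p = 0.000305), Pprc1 by 0.70 ± 0.11 (adjusted p = 0.000283) and Cycs by 0.67 ± 0.10 (adjusted p = 0.000129). HEL was given in the mouse and CpG in culture, the HEL controls carry no Cre while the CpG controls do, the deleted alleles differ, and so do the library numbers, so the stimulus cannot be told apart from these.

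**Figure D5:**
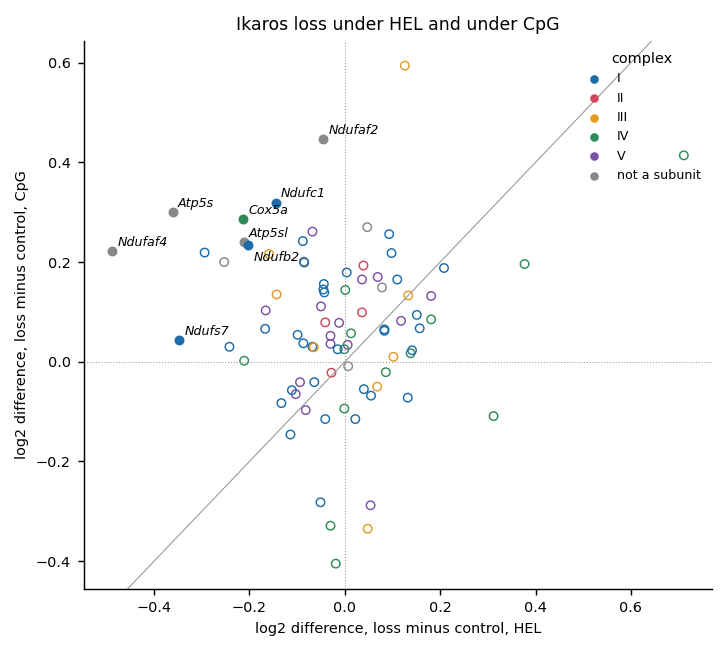
Log2 difference between Ikaros loss and control for each member under HEL (x axis) and under CpG (y axis), on log2(TPM + 1); filled and named points are the 8 members whose 2 effects differed in all 3 scalings, and the diagonal line marks equal effects. The 8 named points lie above the diagonal, Ndufaf4 being farthest left at -0.49.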

How the data were processed

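Gene expression was measured by RNA-seq of poly(A) RNA in 28 libraries. The authors deposited 1 table of TPM (counted reads per gene length, scaled to a fixed sum) per library. The build mm9 and the tools featureCounts 1.5.0, TopHat 1.4.1, Bowtie, deepTools 3.0.1 and SAMtools 1.4 are named in the submitters' processing notes; which tool made the TPM, and with which settings, is not given in the sources used here. ATAC-seq and ChIP-seq samples of the series were not analysed here, nor were coordinates of mm9.

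The TPM of all 18843 genes above 0 were whole multiples of 1 read (tolerance 0.01), which gave the reads per library, 12126702 to 25424364. Each comparison was fitted with limma 3.58.1 (R 4.3.3, trend) on log2(TPM + 1), over the libraries of the groups compared, for genes that reached 1 TPM in a number of libraries no lower than the size of the smaller group. Genes were called at a Benjamini-Hochberg adjusted p under 0.05 over all genes tested. The difference of the loss effects was an interaction term over the 4 HEL and CpG groups. Alternatives were a pseudocount of 0.1, no filter, median-ratio scaling, limma-voom on the recovered reads with TMM factors computed for this work, terms for sex and for the block of CpG library numbers, and leaving out each library. The fit was tested on simulated data. Figures and summaries used Python 3.11.15.

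The members and gene lists were chosen with earlier results of these data known. The genes named are 1 core subunit per complex, the largest called rise and fall per complex and comparison, isoform sets, assembly factors and up to 2 genes per list; other genes, the isoform shares, the promoters shown and the count over 3 scalings were chosen after values were seen. Values of 1 member are not reported here.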

Additional observations from a re-analysis of the deposited data

Results flagged for a closer look

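A single library stood far from the others of its group in 3 of 176 groups of 4 or 5 libraries, where chance alone gives about 1 in 20. Cox6b1, a complex IV subunit, was at 1036 TPM in CpG control replicate 1, with the next library at 1199 TPM. Ndufaf6, a complex I assembly factor, was at 38.5 TPM in CpG loss replicate 1 against 31.4 TPM in the next. Uqcrb, a complex III subunit of uncertain level, was at 58.8 TPM in HEL loss replicate 1 against 46.0 TPM in the next.

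The effect of Ikaros loss differed between CpG and HEL for 15 of 86 members by the limma interaction term (17.4%, beside 22.4% of all genes), each of the 15 higher under CpG on deposited TPM. Of these, 8 were called in all 3 scalings; voom called 8 higher and 1 lower, and without CpG loss replicate 4 there were 16 higher and 2 lower. In complex I the differences of the log2 effects were 0.51 for Ndufb4, 0.46 for Ndufc1, 0.44 for Ndufb2, 0.39 for Ndufs7, 0.33 for Ndufb6 and 0.28 for Ndufs6. In complex III they were 0.38 for Uqcr11 and 0.28 for Uqcrc1, in complex IV 0.50 for Cox5a, and in complex V 0.33 for Atp5g3. Among non-subunits they were 0.71 for Ndufaf4, 0.66 for Atp5s, 0.49 for Ndufaf2, and 0.45 for both Atp5sl and Ndufaf6. The adjusted p-values ran from 0.000566 (Atp5sl) to 0.0423 (Ndufb4).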

How the results depend on the processing

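No paired analysis was possible because the replicate numbers follow the order of the accessions and pair no samples; a block for the CpG library numbers raised the CpG loss calls from 5 to 10. Counts of called members that moved by over 1.5 times were, with median-ratio scaling and voom, 2 and 3 for CpG loss (5), 9 and 9 for the difference of the loss effects (15), 34 and 34 for anergic against HEL (14), and 44 and 38 for number-36 against number-57 naive controls (14). A term for sex gave 27 for HEL against naive (41), 5 for anergic against HEL and 24 between naive controls. Leaving out 1 library gave 0 to 0 calls for naive loss, 10 to 18 for HEL loss, 2 to 8 for CpG loss, 9 to 18 for their difference, 0 to 7 for anergic against naive, 24 to 40 for HEL against naive, 7 to 23 for anergic against HEL, 59 to 73 and 65 to 71 for CpG against naive in control and loss cells, and 4 to 22 between naive controls (22 without number-36 replicate 2, and 4, 4 and 5 without number-57 replicates 1, 2 and 3).

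The summed subunit share after median-ratio scaling over all libraries was 3.49% (naive loss), 3.06% (number-36 naive), 2.66% (HEL control), 2.71% (HEL loss), 2.28% (number-57 naive), 3.72% (CpG loss) and 3.64% (CpG control). Without subunits marked as overlapping another gene it was 2.35% (HEL control), 2.32% (HEL loss), 2.25% (number-57 naive), 4.04% (CpG loss) and 3.901% (CpG control). Signs reversed, with median-ratio scaling and voom, for Sdha in anergic against HEL (-0.016 and -0.005), in CpG against naive controls (-0.028 and -0.035) and in loss cells (-0.075 and -0.10), and for Cox6a1 in loss cells (-0.13 and -0.16). With voom alone they reversed for Cox6a1 in controls (-0.006) and Atp5g2 in loss cells (-0.009). Of the other values of named genes under alternatives, 911 kept their direction and side of the threshold and 183 kept their direction but no longer passed. The causes were not tested. In naive loss no member was called under any alternative, although a term for sex raised the calls over all genes from 2 to 104 higher and 136 lower, and voom to 43 and 18.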
